A study of Rattus norvegicus with 10 samples.

Results

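The 8 genes described here encode calcium/calmodulin-dependent protein kinases (CaM kinases). They are Camk2a, Camk2b, Camk2d and Camk2g, the 4 subunit genes of CaM kinase II (CaMKII), Camk4 and Camk1d, which encode CaM kinases IV and I delta, and Camkk1 and Camkk2, which encode the 2 upstream CaM kinase kinases. They were listed by name because Camk2a and Camk2b had higher values in astrocyte nuclei of injured rats, so the astrocyte comparison is given as a description without a test. All 8 were found among the 25399 genes of the single-nucleus matrices and among the 14166 genes of the bulk table. The tissue was the ipsilateral dentate gyrus of male Sprague-Dawley rats 3 weeks after lateral fluid percussion injury, a fluid pulse onto the dura that models traumatic brain injury (TBI), or after the control procedure. Bulk polyA RNA came from 3 TBI and 3 sham rats, and nuclei came from 2 TBI rats, 1 sham rat and 1 naïve rat, each rat being its own library. Sham rats had the craniectomy and anesthesia of the TBI rats without the pulse, and the naïve rat had no surgery. The sham and naïve rats together formed the control arm of the nuclei, as in the study, so surgery and rat could not be told apart within that arm.

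Calcium entering through synaptic receptors and channels binds calmodulin, which opens the catalytic site of the CaM kinases. CaMKII forms large holoenzymes that phosphorylate themselves and glutamate receptors, and its alpha and beta subunits are among the abundant proteins of excitatory synapses. CaMKIV acts in the nucleus on CREB, and the CaM kinase kinases switch on CaMKIV, CaMKI and, in the case of CaMKK2, AMPK.

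Nuclei were placed in classes by lists of marker genes for 12 cell types, none of which held a CaM kinase gene. A nucleus entered a class when at least 3 of its markers were detected and when it held at least 2 more than of any other class. Of 55863 deposited nuclei 55124 passed the published quality limits, and 43.9% of these entered a class, from 39.5% in the sham rat to 54.9% in the naïve rat. The classes held 11782 granule neurons, 4465 astrocytes, 2638 oligodendrocytes, 2062 microglia, 1558 oligodendrocyte precursors, 1053 GABAergic neurons, 290 other glutamatergic neurons and 265 endothelial cells, and these 8 classes are described. A further 71 nuclei were pericytes, and the lists for fibroblasts, ependymal and choroid cells and lymphocytes took 0 nuclei. Total unique molecular identifiers (UMIs) per rat ran from 26086141 to 35293678, and pairs of libraries shared 45 to 60 cell barcodes. No doublet caller was applied, and the margin of 2 markers was the only guard against mixed droplets. The gate itself required each class to carry its own markers, so their levels are no separate check of identity. The summed astrocyte markers in astrocytes were 4014 to 7046 counts per 1000000 UMIs (CPM), with a mean of 1465 CPM in the class next highest for them. The granule list was the least exclusive, at 2398 to 3198 CPM in granule neurons and a mean of 1370 CPM in astrocytes. The matrices also stored entries with the value 0, which made up 1.63% of stored entries in TBI rat 1, 27.4% in TBI rat 2, 11.1% in the sham and 15.5% in the naïve rat. They were read as 0, and no source used here says how they arose.

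Camk2a, the alpha subunit of CaMKII, had its highest means in the excitatory neurons. In granule neurons, the principal cells of the dentate gyrus, its level was 1491 CPM in TBI rat 1, 1536 in TBI rat 2, 1360.4 in the sham and 1443 in the naïve rat, a mean of 1458 ± 75.2 CPM (SD, n = 4 rats). Other glutamatergic neurons averaged 1307 CPM, astrocytes 837, microglia 697, oligodendrocytes 588, GABAergic neurons 539, oligodendrocyte precursors 464 and endothelial cells 460.02. Each class overlapped its neighbour in this order, so no adjacent pair was separated beyond the spread between rats. Camk2b, the beta subunit, had the same leading class, with 912, 979, 782 and 789.7 CPM in granule neurons of TBI rat 1, TBI rat 2, the sham rat and the naïve rat. Astrocytes came next at a mean of 690 CPM with an overlapping range, and they exceeded granule neurons in TBI rat 2, at 1061 CPM. Microglia followed at 542 CPM. Glial nuclei also held transcripts of neuronal genes, as given below, and the part of neuronal RNA in these levels was not tested.

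The other CaMKII subunits each had their highest mean in a glial class. Camk2d, the delta subunit, was highest in microglia, the resident macrophages of the brain, at 255 and 291 CPM in the TBI rats, and 321 and 537 in the sham and the naïve rat. The microglial range did not overlap that of oligodendrocyte precursors, the next class, which averaged 171 CPM. Granule neurons were the lowest class, with 17.5 and 2.6 CPM in the TBI rats, and 14.4 and 1.6 in the sham and the naïve rat, from only 116, 13, 114 and 18 UMIs. These low values moved with the stored zeros, which were 7.02%, 88.0%, 39.1% and 87.1% of the Camk2d entries stored for granule neurons in those rats. With these entries read as 1 UMI, a setting chosen after seeing the data, astrocytes held Camk2d at 608%, 748%, 785% and 2585% of the granule level. The very low values of TBI rat 2 and the naïve rat thus depended on how the stored zeros were read. With the entries read as 0, granule neurons stayed below the other classes in every rat.

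Camk2g, the gamma subunit, was highest in astrocytes and varied little between rats there, at 179 and 206 CPM in the TBI rats, and 202 and 193 in the sham and the naïve rat (mean 195 ± 11.7, n = 4). That range did not overlap that of GABAergic neurons, the next class, which held 68.6 to 122 CPM. Granule neurons held 36.4 to 67.3 CPM, a mean of 53.4 CPM, and oligodendrocytes were the lowest class at a mean of 47.7 CPM. By their means, Camk2a and Camk2b thus led in granule neurons, Camk2d in microglia and Camk2g in astrocytes. For Camk2g the other glial classes did not stand apart from neurons.

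Camk4 and Camk1d both led in the other glutamatergic neurons, the class defined by markers of hilar mossy and pyramidal cells. Camk4 measured 506 and 723 CPM there in the TBI rats, and 529 and 535 in the sham and the naïve rat, above granule neurons at a mean of 223 CPM with no overlap. Camk1d measured 1072, 1365, 994 and 1027 CPM in the same order of rats. Microglia followed at 836 to 961 CPM, lower than the other glutamatergic neurons and higher than astrocytes without overlap on either side. Of the upstream kinases, Camkk1 led in granule neurons at a mean of 75.6 CPM, with astrocytes at 67.3 CPM overlapping it. Camkk2 led in other glutamatergic neurons at 158 CPM and reached 92.4 CPM in granule neurons, again with overlapping ranges. In all, 6 of the 8 genes had their highest mean in a neuronal class.

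**Figure D1:**
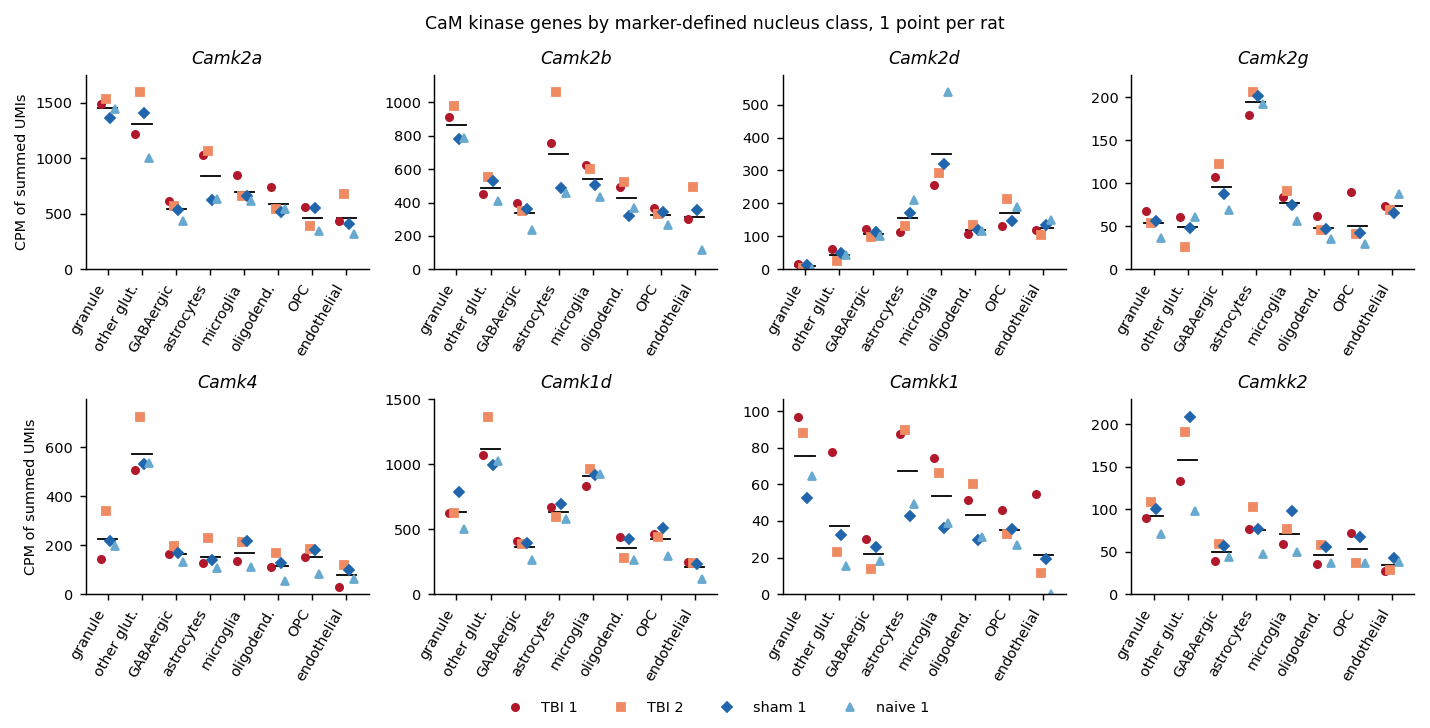
Level of each CaM kinase gene (CPM of summed UMIs, 1 panel per gene) in 8 marker-defined classes, with 1 point per rat (n = 4) and a bar at the mean. Camk2a and Camk2b have their highest mean in granule neurons, with ranges that overlap the next class. Camk2d is highest in microglia and lowest in granule neurons, and the astrocyte values of Camk2g stand clear of every other class.

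The genes whose levels most resembled those of Camk2a over the 32 class and rat values were Slit1 (Pearson r = 0.95 on log2(CPM + 1)), Prkag2 (r = 0.94), Plxna4 (r = 0.91), Prkce (r = 0.91) and Cap2 (r = 0.90). For Camk2d they were Epb41l2 (r = 0.88), Abca1 (r = 0.86), Fchsd2 (r = 0.85), Rrbp1 (r = 0.85) and Rhoq (r = 0.84). The search covered 9897 genes with a mean of at least 10 CPM. The 32 values came from only 4 libraries, and the correlations are descriptive.

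In astrocytes, both TBI rats lay above both control rats for Camk2a, Camk2b and Camkk1. Camk2a measured 1029 CPM in TBI rat 1 and 1068 in TBI rat 2, against 622 in the sham and 630.3 in the naïve rat. The TBI mean was 1.67 times the control mean, and the sham and naïve rats lay close to each other. Camk2b measured 756 and 1061 CPM in the TBI rats against 485 and 457 in the controls, a ratio of 1.93. TBI rat 2 supplied much of that distance, since the log2 ratio of 0.95 became 0.68 without it. Camkk1, which activates CaMKI and CaMKIV, measured 87.6 and 89.7 CPM against 42.9 and 49.2, also a ratio of 1.93.

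Camk2d went the other way in astrocytes, with 113 and 132 CPM in the TBI rats and 171 and 210.0 in the control rats, a ratio of 0.64. Camk2g and Camk1d sat near equality, at ratios of 0.98 and 0.995, with overlapping rats. Camk4 had 126 and 230.2 CPM against 139.6 and 105, and Camkk2 had 76.1 and 103 against 76.2 and 47.0, both with overlap. Astrocytes were treated as 1 class, and a different mix of astrocyte subtypes in TBI and control rats was not tested. In total 3 of the 8 genes lay higher, 1 lower and 4 overlapped. Across the 9675 genes with a mean of at least 10 CPM in astrocytes, both TBI rats lay above both controls for 26.9% and below them for 17.9%. A ratio of at least 1.5 was reached by 8.68% of genes. Nothing is read from the members' counts here, since this comparison chose them.

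**Figure D2:**
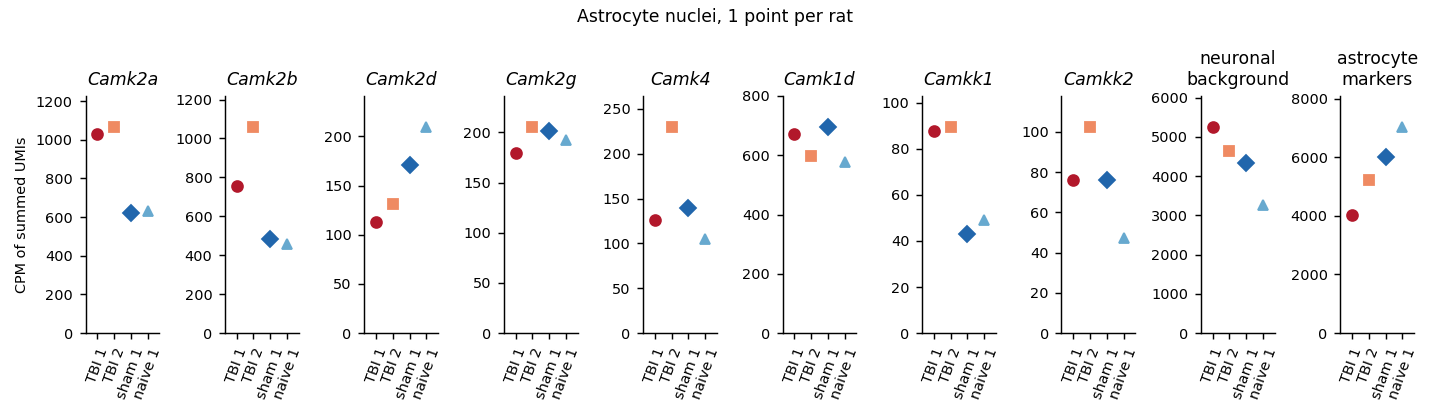
Astrocyte level (CPM of summed UMIs, axes from 0) of the 8 CaM kinase genes, of the summed neuronal list and of the summed astrocyte markers, with 1 point for each of 2 TBI rats, the sham rat and the naïve rat. The TBI points lie above both controls for Camk2a, Camk2b, Camkk1 and the neuronal list and below both for Camk2d and the astrocyte markers.

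Genes that mark neurons moved with the astrocyte result. A list of 10 genes with mostly neuronal expression (Snap25, Syt1, Rbfox3, Slc17a7, Grin1, Grin2a, Ddn, Hpca, Chgb and Celf4) summed to 5263 and 4649 CPM in astrocytes of the TBI rats and to 4331 and 3259 CPM in those of the control rats, a ratio of 1.31. Both TBI rats lay above both controls for 8 of the 10, none lay below, and the ratios ran from 1.13 for Syt1 to 2.23 for Ddn, a dendritic protein gene. The list was chosen with earlier results of these data known. The paper itself gives Ddn, Slc17a7, Grin1, Grin2a and Snap25 among its astrocyte differences. These counts are therefore a description and no independent support. The median log2 ratio was 0.68 for these 10 genes, 0.54 for the 8 CaM kinase genes and 0.05 for all genes of at least 10 CPM. At the same time the summed astrocyte markers were lower in the TBI rats, at 4014 and 5215 CPM against 5996 and 7046, a ratio of 0.71. The summed granule markers in astrocytes were 1337 and 1561 CPM against 1289 and 1291. The part of neuronal RNA in the Camk2a, Camk2b and Camkk1 values was not tested. The measurements that follow use the same astrocyte comparison and the same list, and they are a description too.

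Set against granule neurons of the same rat, the neuronal list stood in astrocytes at 75.6% and 65.3% in the TBI rats, and 56.4% and 46.5% in the sham and the naïve rat. Camk2a stood at 69.0%, 69.6%, 45.7% and 43.7% in the same order, and Camk2b at 82.9%, 108%, 62.0% and 57.9%. Camk2a lay below the neuronal list in 3 of the 4 rats and above it in TBI rat 2. Camk2d and Camk2g were the members that astrocytes held well above the granule level in every rat, Camk2g at 266% to 529%, and Camk1d stood between 88.9% and 115%. In microglia the neuronal list stood at 52.8% to 77.7% of granule neurons, Camk2a at 42.8% to 57.0% and Camk2b at 55.1% to 68.8%. Oligodendrocytes held Camk2a at 35.3% to 49.9%, oligodendrocyte precursors at 24.2% to 40.5% and endothelial cells at 21.8% to 43.9%. Camk2a was therefore detected in each glial or vascular class, and the source of these transcripts was not tested.

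**Figure D3:**
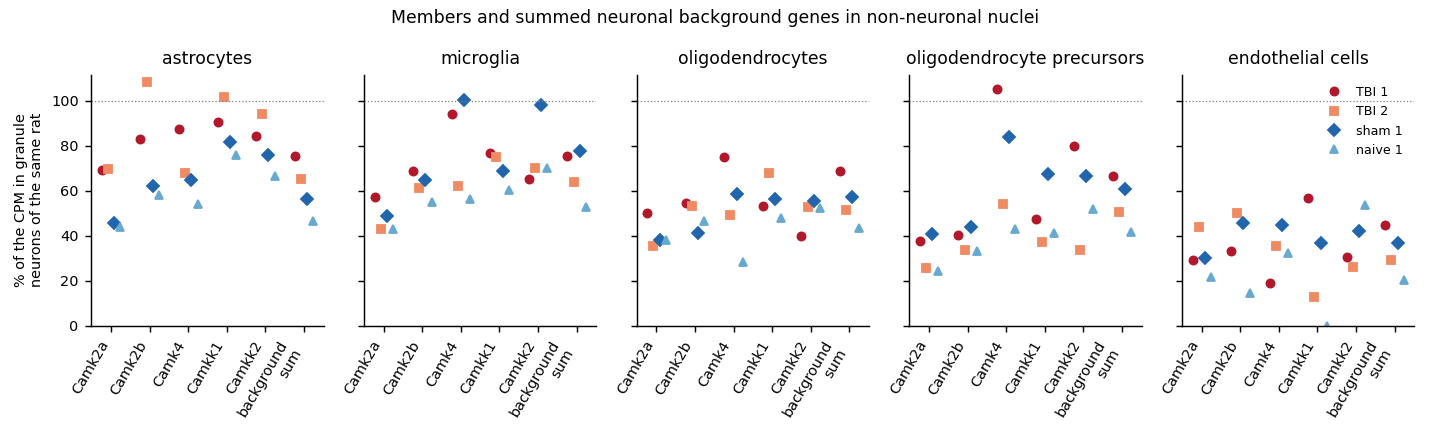
Level of Camk2a, Camk2b, Camk4, Camkk1, Camkk2 and the summed neuronal list (labelled background sum) in 5 non-neuronal classes, as a percent of the level in granule neurons of the same rat, with 1 point per rat and a dotted line at equality. In astrocytes Camk2a spans 43.7% to 69.6% and the neuronal list 46.5% to 75.6%.

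As a share of the neuronal list in astrocytes, Camk2a was 19.5% and 23.0% in the TBI rats and 14.4% and 19.3% in the controls, a ratio of 1.26 with both TBI rats higher, although TBI rat 1 and the naïve rat were close. Camk2b was 14.4% and 22.8% against 11.2% and 14.03%, a ratio of 1.47, and Camkk1 was 1.66% and 1.93% against 0.990% and 1.51%. The same shares were also higher in TBI granule neurons, at 21.4% and 21.6% against 17.7% and 20.6% for Camk2a and at 13.1% and 13.7% against 10.2% and 11.3% for Camk2b. Camk2d as a share of the list was lower in TBI astrocytes, at 2.15% and 2.83% against 3.95% and 6.44%. So were Camk2g, at 3.41% and 4.43% against 4.66% and 5.91%, and Camk1d, at 12.7% and 12.8% against 16.1% and 17.7%, although both were near equality by CPM. Syt1 had the highest level of the 10 listed genes in astrocytes, at 2631 and 1986 CPM in the TBI rats. It measured 2406 and 1686 CPM in the sham and naïve rats, and its ratio was the lowest of the list. The sum therefore had a lower ratio than the list's median gene, at a log2 ratio of 0.68. Camk2a had a log2 ratio near that median, and those of Camk2b and Camkk1 were above it. The higher Camk2a share is not read as a rise beyond neuronal genes.

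Few astrocyte nuclei were free of the neuronal list. Only 7 and 22 nuclei of the TBI rats and 35 and 118 of the sham and naïve rats held no UMI of its 10 genes. In them Camk2a measured 252 and 271 CPM in the TBI rats and 299.7 and 226 in the controls, from 2, 7, 12 and 47 UMIs, and the log2 difference fell to -0.0045. Camk2b measured 252 and 349 CPM against 225 and 197, from 2, 9, 9 and 41 UMIs, a log2 difference of 0.51. Camkk1 measured 379 and 194 CPM against 25.0 and 48.0, from 3, 5, 1 and 10 UMIs. At these counts no direction can be read.

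The share of astrocyte nuclei with at least 1 Camk2a UMI was 65.8% and 58.1% in the TBI rats and 45.5% and 51.1% in the controls, at median depths of 2073.5, 1816, 1429 and 2142 UMIs. With every nucleus thinned to 1000 UMIs the shares were 48.7%, 46.8%, 35.7% and 30.4%, with 97, 158, 274 and 57 shallower nuclei left out. Microglia gave thinned shares of 57.7%, 55.1%, 57.7% and 47.9%. Since 330, 681, 262 and 319 microglial nuclei fell short of 1000 UMIs, these shares describe only the deeper nuclei. The thinned astrocyte share of Camk2a lay below the microglial share in each rat, whereas by CPM astrocytes lay above microglia in 3 of the 4 rats, so no order between these classes is read from the shares. For Camk2b the thinned astrocyte shares were 44.8% and 52.6% against 29.7% and 25.4%, and the microglial shares were 48.9%, 48.6%, 42.3% and 33.3%. TBI rat 2 was the only rat in which the astrocyte share of Camk2b exceeded the microglial one.

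The comparison of TBI with control in 6 other classes addressed whether the family differed outside astrocytes. The lowest unadjusted p-values of the family were those of Camkk1, with higher values in TBI granule neurons, microglia and oligodendrocytes, and of Camk2d, with lower values in TBI microglia. None of the 47 tests of a CaM kinase gene passed an adjusted p of 0.05 (edgeR quasi-likelihood test on UMI sums per rat, two-sided, Benjamini-Hochberg over all genes tested in the class), and 4 had an unadjusted p under 0.05. By this test 0.0% of genes were called in each class, and an unadjusted p under 0.05 was reached by 1.16% of genes in granule neurons, 4.92% in other glutamatergic neurons, 2.7% in GABAergic neurons, 3.37% in microglia, 2.07% in oligodendrocytes and 2.27% in oligodendrocyte precursors. DESeq2 called no CaM kinase gene, and it called 1 gene of any kind (0.00809%) in granule neurons and 0 in the other 5 classes. Endothelial cells were described without a test by choice, and the filter on low counts removed Camkk1 from the test in other glutamatergic neurons. The classes came from the same 4 rats, so agreement between them is not repeated evidence.

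In granule neurons Camkk1 measured 96.9 and 88.4 CPM in the TBI rats against 52.5 and 64.7 in the sham and naïve rats. Both TBI rats were clear of both controls, and the log2 fold change was 0.59 ± 0.19 (SE, n = 2 against 2; unadjusted p = 0.0199, adjusted p = 0.999). Camk2a and Camk2b were also higher in both TBI rats, at ratios of 1.08 and 1.20, and the other 5 members overlapped. For comparison, both TBI rats lay above both controls for 21.7% of genes and below them for 7.53% in this class. For Camk2a the edgeR fit, which scales the libraries differently from CPM, gave a negative log2 fold change without TBI rat 2, at -0.069.

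In microglia Camkk1 measured 74.4 and 66.2 CPM against 36.0 and 38.9, with a log2 fold change of 0.84 ± 0.33 (edgeR unadjusted p = 0.0311, adjusted p = 0.999). Camk2b and Camk2g were higher in both TBI rats as well, at ratios of 1.30 and 1.33. Camk2d was lower in both, with a log2 fold change of -0.71 ± 0.30 (edgeR unadjusted p = 0.0418, adjusted p = 0.999), and the naïve rat alone, at 537 CPM, set much of that distance. With 1 rat left out at a time the value ran from -0.996 to -0.28, the latter without the naïve rat. Camk2a overlapped in microglia, at 850.1 and 657 CPM against 661 and 619. Both TBI rats were above both controls for 18.2% of microglial genes and below for 12.6%.

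In oligodendrocytes Camkk1 measured 51.6 and 60.1 CPM against 29.7 and 31.1, a log2 fold change of 0.77 ± 0.34 (edgeR unadjusted p = 0.0421, adjusted p = 0.9997). Camk2b was higher in both TBI rats there, at a ratio of 1.48, and 21.4% of genes in the class were higher and 8.56% lower in both. The GABAergic neurons had higher Camk2a and Camk2g in both TBI rats, at ratios of 1.23 and 1.47, against 18.9% of genes. Other glutamatergic neurons had 1 gene higher, Camk1d, against 15.9% of genes, and oligodendrocyte precursors had none, against 16.6%. In endothelial cells Camk2a and Camk1d were higher and Camk2d and Camkk2 lower, at 31 to 99 nuclei per rat and with Camkk2 resting on 3, 5, 11 and 3 UMIs, against 16.6% of genes higher and 15.3% lower.

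Over all 64 pairs of gene and class, the TBI rats were both higher in 16, both lower in 4 and overlapping in 44, while 19.6% of all pairs of gene and class were higher and 12.9% lower. Without astrocytes, the class that chose the members, 13 of 56 pairs were higher and 3 lower, against 18.4% and 12.2% of all pairs. Camk2a, Camk2b and Camkk1 were each higher in 4 of the 8 classes, Camk2d was lower in 3, and Camk4 overlapped in all 8, astrocytes included. The neuronal list, over 79 pairs with a mean of at least 10 CPM, was higher in 20, lower in 4 and overlapping in 55. Without astrocytes the list was higher in 12 of 69 pairs, lower in 4 and overlapping in 53.

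**Figure D4:**
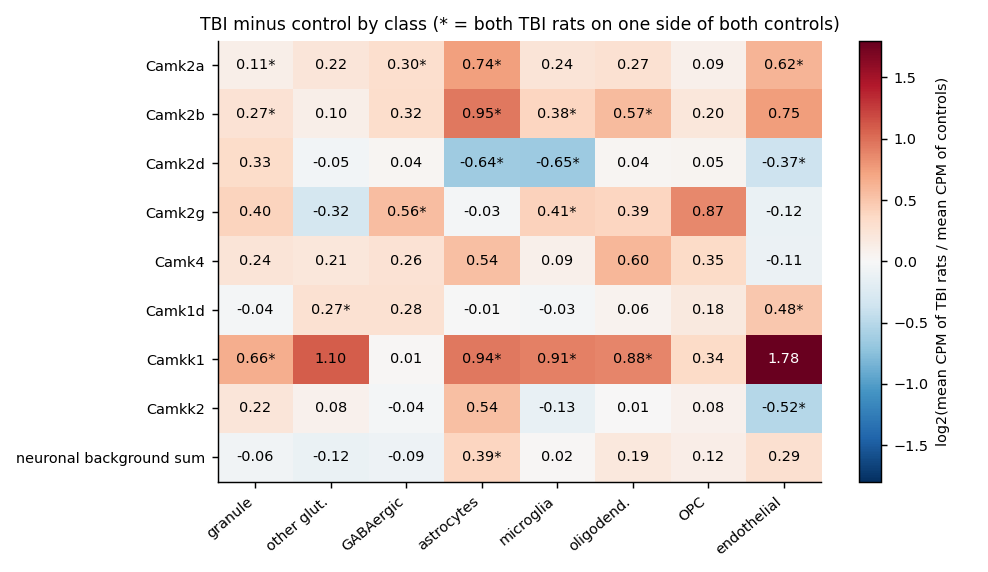
Log2 ratio of the TBI mean to the control mean (2 rats each) for the 8 CaM kinase genes and the summed neuronal list in 8 classes, with an asterisk where both TBI rats lay on one side of both controls. Most asterisks belong to Camk2a, Camk2b and Camkk1 (higher in 4 classes each) and Camk2d (lower in 3), while the large Camkk1 ratio in endothelial cells rests on 6, 2, 5 and 0 UMIs.

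In bulk tissue none of the 8 genes passed the test between 3 TBI and 3 sham rats, and the libraries of the groups overlapped for each. Fewer cells of a type and less RNA per cell cannot be told apart in bulk tissue. Camk2a measured 11.05, 10.77 and 10.83 log2 CPM in sham rats 1, 2 and 3 and 10.86, 10.81 and 10.43 in TBI rats 1, 2 and 3. The groups overlapped, and the log2 fold change was -0.21 ± 0.15 (SE, edgeR quasi-likelihood adjusted p = 0.721). Camk2b measured 10.95, 10.38 and 10.50 log2 CPM against 10.68, 10.44 and 10.27 (log2 fold change -0.19 ± 0.18, edgeR adjusted p = 0.803). Both bulk values were thus slightly negative, where the astrocyte nuclei of other rats had positive ones.

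Camk2d and Camk2g, the subunits with their highest means in microglia and astrocytes, respectively, had small positive values in bulk. Camk2d measured 4.34, 5.19 and 4.92 log2 CPM in sham rats and 5.09, 4.93 and 5.31 in TBI rats (log2 fold change 0.22 ± 0.22, edgeR adjusted p = 0.821). Camk2g measured 7.97, 7.70 and 8.06 against 7.98, 8.0 and 8.20 (0.11 ± 0.12, edgeR adjusted p = 0.852). The remaining 4 genes had negative values. Camk4 measured 4.67, 4.79 and 4.51 log2 CPM in sham rats against 4.39, 4.63 and 3.43 in TBI rats, with TBI rat 3 set far below the other libraries (-0.46 ± 0.29, edgeR adjusted p = 0.688). Camk1d gave -0.33 ± 0.18 (edgeR adjusted p = 0.640) and Camkk1 -0.23 ± 0.15 (edgeR adjusted p = 0.704). Camkk1 was therefore lower in bulk on average while it was higher in several nuclear classes, and the difference between the assays was not tested.

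Camkk2, the kinase kinase that also acts on AMPK, came closest to a difference in bulk. It measured 5.82, 6.02 and 6.03 log2 CPM in sham rats against 5.67, 5.84 and 5.35 in TBI rats, a log2 fold change of -0.37 ± 0.15 (edgeR unadjusted p = 0.0441, adjusted p = 0.501). TBI rat 2 lay just above sham rat 1, so the groups overlapped. Among the 14166 bulk genes, edgeR called 0.0% at an adjusted p of 0.05, 9.6% had an unadjusted p under 0.05 and DESeq2 called 349 (2.47%), none of them a CaM kinase gene. TBI rat 3 was the lowest of the 6 libraries for Camk2a, Camk2b, Camk4, Camk1d, Camkk1 and Camkk2, and its neuronal list was also the lowest, at 7349 CPM against 8905 to 10535 in the other libraries. The part of neuronal content in these values was not tested. By date of injury the rats were split into 2 periods, here named spring (months up to June) and autumn (later months). Within the spring and autumn periods the log2 difference was -0.05 and -0.21 for Camk2a, 0.01 and -0.15 for Camk2b, and -0.25 and -0.44 for Camkk2. The spring period held 2 sham rats and 1 TBI rat and the autumn period 1 sham rat and 2 TBI rats.

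**Figure D5:**
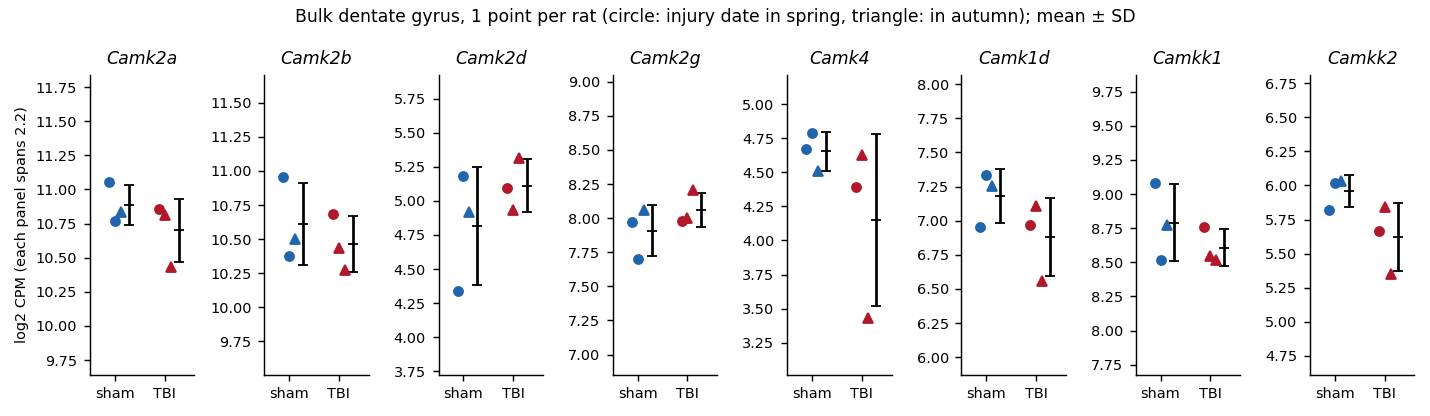
Bulk level (log2 CPM) of the 8 CaM kinase genes in 3 sham and 3 TBI rats, with 1 point per library and bars for the mean ± SD. Circles mark injury dates up to June (named spring) and triangles later dates (named autumn). Every panel spans the same log2 range without starting at 0, the groups overlap for every gene, and TBI rat 3 is the lowest library for 6 of them.

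The pathway around the CaM kinases was followed with 29 further genes for calmodulins, CaMKII inhibitors, calcineurin, CaM kinase phosphatases and substrates, all measured in bulk. None was called by edgeR, 7 had a positive and 22 a negative log2 fold change, and the median was -0.18, against -0.22 for the 8 CaM kinase genes, -0.23 for 9 genes of the neuronal list and -0.0029 for all genes. The largest values were those of Prkaa2 and Prkaa1, the catalytic AMPK subunits, at -0.53 ± 0.24 and -0.34 ± 0.15, and of Ppm1e, a CaM kinase phosphatase, at -0.36 ± 0.20. Ppp3r1, the regulatory subunit of calcineurin, was the single gene with an unadjusted p under 0.05 (edgeR, -0.31 ± 0.12, unadjusted p = 0.0301, adjusted p = 0.431), and it is named after its values were seen. All 3 TBI libraries lay below all sham libraries for Ppp3r1, Prkaa1 and Calm3 and above them for Ppm1f, also named after the fact, while 3.04% of all genes lay below and 11.7% above.

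In astrocyte nuclei 26 of the pathway genes had a mean of at least 10 CPM. Both TBI rats lay above both controls for 11 of them, below for 1 (Creb1, singled out after its value was seen, ratio 0.81) and overlapped for 14, with a median log2 ratio of 0.40. Over all astrocyte genes the shares were 26.9% above and 17.9% below, and 8 of the 10 genes of the neuronal list lay above. Many of the pathway genes are themselves used by neurons, and the part of neuronal RNA in their values was not tested. Ppm1e had a ratio of 1.36 and Prkaa1 of 1.34 with no overlap, whereas Prkaa2 stood at 0.998.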

How the data were processed

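The authors deposited 4 nucleus matrices of UMI counts (10x 3' chemistry, Cell Ranger, exons and introns, Rnor_6.0) and a bulk table of log2 CPM per gene with Entrez identifiers, made with kallisto in ExpressAnalyst. The deposited transcript table of estimated counts served only for library totals, with which log2 CPM values were turned back into counts (totals 24730290.1 to 43912297, 97.8% to 98.5% of the transcript totals). The deposited dates of injury were split into the 2 periods, whose season names were given here.

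Nuclei were kept at 500 or more UMIs, 300 or more features, a log10 genes per UMI of 0.8 or more, no more than 5% mitochondrial or 2% ribosomal UMIs. UMIs were summed per class and rat and scaled to CPM. Tests used edgeR 4.0.16 (quasi-likelihood, TMM, Benjamini-Hochberg over all genes), with DESeq2 1.42.0 and limma 3.58.1 as alternatives in R 4.3.3, after checks on simulated data. Ratios are of group means. The members, lists and rules for naming genes were chosen with earlier results of these data known: all 8 members, the extremes of the neuronal list, the 3 pathway genes with the largest bulk change and the 5 most alike genes for Camk2a and Camk2d. Transcript-level values and sequences were not analysed here.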

Additional observations from a re-analysis of the deposited data

How the results depend on the processing

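No CaM kinase gene was called in bulk or in the 6 tested classes under any setting run. The number of genes called in all, 0 by edgeR in each comparison, moved in bulk to 349 by DESeq2 (229 by DESeq2 without TBI rat 3), 61 with the replicate block and 1 without TBI rat 3. Without a filter on low counts it was 52 in granule neurons, 4 in other glutamatergic neurons, 31 in GABAergic neurons, 14 in microglia, 13 in oligodendrocytes and 10 in oligodendrocyte precursors. Leaving out 1 rat gave at most 18, 39, 26, 15, 56 and 118 in those classes, where a lone rat in an arm was assumed to vary like the others. In bulk, same-numbered rats had deviations correlated at 0.35, 0.17 and -0.03, so the numbers were not taken as pairs, and the replicate block gave 0 CaM kinase calls. No paired analysis was possible for the nuclei because the arms share fewer than 2 numbers.

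In astrocytes 4 members were clear of overlap, against 5 to 7 when 1 rat was left out. Leaving out a rat can only keep or raise this number, so the rise says nothing on stability. With all 4 rats, both TBI rats lay above both controls for 26.9% of astrocyte genes and below for 17.9%. Nothing is read from the count of members, which this comparison chose. In nuclei free of the neuronal list Camk2a gave -0.0045 in astrocytes, Camk1d 0.40 in microglia and Camk1d 0.26 in oligodendrocytes, and Camk4 gave no value in astrocytes. With at least 4 detected markers Camk2b gave -0.12 in other glutamatergic neurons, Camkk2 0.17 in GABAergic neurons and Camk4 -0.038 in microglia, each a reversed sign. The cause was not tested. The mean percent of the neuronal list in astrocytes, 60.9%, was 58.7% with at least 4 markers and 63.4% with stored zeros read as 1, the latter chosen after seeing the data.

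Leaving out 1 rat turned the sign of the log2 difference for the following genes, with the lowest and highest value each. Astrocytes: Camk1d -0.14 to 0.14 and Camk2g -0.14 to 0.06. Granule neurons: Camk1d -0.37 to 0.23, Camk2a -0.069 to 0.16, Camk2d -1.57 to 2.51, Camk4 -0.66 to 0.75 and Camkk2 -0.073 to 0.41. GABAergic neurons: Camk1d -0.0088 to 0.53, Camk2d -0.15 to 0.11, Camkk1 -0.65 to 0.42 and Camkk2 -0.42 to 0.21. Microglia: Camk1d -0.18 to 0.014, Camk2a -0.011 to 0.37, Camk4 -0.35 to 0.65 and Camkk2 -0.58 to 0.43. Oligodendrocytes: Camk1d -0.38 to 0.29, Camk2a -0.067 to 0.36, Camk2d -0.25 to 0.10 and Camkk2 -0.50 to 0.21. Oligodendrocyte precursors: Camk1d -0.20 to 0.59, Camk2a -0.24 to 0.42, Camk2b -0.014 to 0.37, Camk2d -0.40 to 0.32, Camk4 -0.14 to 0.98 and Camkk2 -0.50 to 0.53. Other glutamatergic neurons: Camk1d -0.0011 to 0.48, Camk2a -0.039 to 0.48, Camk2b -0.11 to 0.33, Camk2d -0.70 to 0.38, Camk2g -1.08 to 0.0024, Camk4 -0.16 to 0.49 and Camkk2 -0.28 to 0.74. With 2 rats an arm, these ranges limit any statement on direction.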

Other observations

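The CaM kinase genes were also measured in the 30940 kept nuclei that entered no class. Camkk1 was 85.4 and 73.2 CPM in the TBI rats and 46.8 and 54.1 in the sham and naïve rats, Camk2b was 798 and 855 against 696 and 707, and Camk2g was 79.5 and 76.3 against 69.4 and 50.6, with both TBI rats above both controls for each. In these nuclei both TBI rats lay above both controls for 25.2% of the 9052 genes with a mean of at least 10 CPM and below them for 7.17%. Camk2a, at 1306 and 1305 CPM against 1229.8 and 1298, was also above both controls, by little over the naïve rat. Camk2d was 46.3 and 41.0 against 44.6 and 22.7, and it overlapped, as did Camk4, Camk1d and Camkk2. Over all nuclei kept, in a class or not, Camkk1 was 85.0 and 73.1 CPM against 46.5 and 53.8, Camk2b was 787 and 844 against 670.2 and 661, Camk2g was 88.1 and 83.5 against 78.6 and 65.4, and Camk2a was 1261 and 1234 against 1151 and 1179, while 25.8% of genes lay above both controls and 8.73% below. The neuronal list summed to 6559 and 6471 CPM against 7121 and 6231 over all nuclei, with overlapping rats. Bulk Camkk1 was 9.08, 8.52 and 8.78 log2 CPM in sham rats and 8.76, 8.54 and 8.51 in TBI rats, with overlapping groups.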
